A study of Mus musculus with 9 samples.

Results

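Interferon-stimulated effector genes are the genes that interferons switch on to block infection, and 37 of them were followed here in mouse peritoneal macrophages kept alone or with colon carcinoma cells. The members were taken from a list of gene symbols, without the IRF transcription factors, and found by the gene name that the array files print for each probe. All 37 were on the array, with 52 probes in all, and 35 of them were among the 17947 genes that were bright enough to test. By role, 23 members were listed as antiviral, 5 of them sensors of nucleic acid. A further 9 belong to the ISG15, PARP and signalling machinery, and 5 are guanylate-binding proteins or immunity-related GTPases.

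Type I interferons bind their receptor and activate the complex ISGF3, which contains STAT2 and IRF9 and binds the interferon-stimulated response element of antiviral genes. Interferon gamma acts mainly through gamma-activated sites, and guanylate-binding proteins and immunity-related GTPases, which attack the membrane around intracellular parasites and bacteria, are textbook targets of it. Many genes answer both kinds of interferon, and macrophages both make and answer them.

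Total RNA was measured on 9 1-colour Agilent arrays, 3 per group. Group Ctrl was macrophages in regular medium for 24 h. Group T was macrophages that shared the lower chamber of a Transwell insert with the mouse colon carcinoma line CT-26 for 24 h. Group M was the macrophages that had migrated, collected from the upper chamber above CT-26, and how long they were co-cultured is not stated. All came from male mice whose strain and age are not given, and all were sorted as CD45+ F4/80+ cells before RNA was made. The groups follow the titles, which the descriptions and the series design match; the cell type field goes against them, calling T migratory and M peritoneal macrophages. Whether the 3 arrays per group stand for separate cultures or mice is not stated, so every p-value here speaks of the spread between arrays, possibly only a technical one, and 3 arrays per group limit the precision. All Ctrl and M arrays lay on 1 slide and all T arrays on another, scanned separately, so a difference between T and either other group cannot be told apart from a slide difference, while M and Ctrl were compared within a slide.

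Of 11 peritoneal macrophage markers, 10 were well above background on every array of each group, and Timd4 on none. Between 60.5% and 78.7% of probes per array were well above background. Repeated spots of the same probe varied by a median of 5.63% to 13.1% on 7 arrays, and by 19.7% on M1 and 26.6% on M3. The summed level of 12 carcinoma epithelium markers on the array was 0.68 to 1.37 in Ctrl, 0.97 to 1.12 in T and 0.58 to 0.93 in M on the log2 scale. Of the 9 tested, 3 were higher in T than in Ctrl, Krt19 by 3.63 ± 0.27, Elf3 by 1.46 and Vil1 by 0.84, and 3 were lower, Ocln, Epcam and Cldn4 at -1.68, -1.60 and -1.35; Cdh1 and Cdx2 did not clear background on any T array. The summed level of 13 granulocyte and mast cell markers was 1.0 to 1.36 in Ctrl, 2.09 to 2.21 in T and 3.24 to 3.38 in M, where Cebpe alone was at 0.63, 2.04 and 3.23. Of the 9 tested, Cebpe was the 1 higher in T and in M, 6 were lower in T, among them Elane at -2.56 and Ngp at -1.32, and the list's median difference was -1.07 in T and -0.70 in M. Ly6g and Ltf exceeded background well on 1 T array each and on no Ctrl or M array, and were not tested. The part of these markers in the results below was not tested.

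Part of the members hold a common sequence motif in their promoters. RefSeq promoter windows of build GRCm38.p6, from 250 bases before a gene's start to 50 after it, were at hand for 28 of the 37 members. The interferon-stimulated response element was searched on both strands as GAAA, any 2 bases and GAAA again, and 15 of the 28 members (53.6%) held it, against 3.99% of all 27025 genes in the table. The stricter GAAAC, any base and GAAA was found in 10 members (35.7%), against 0.792% of all genes. The gamma-activated site, searched as TTCNNNGAA, which is its own reverse complement, was found in 7 members (25%) against 9.55%. The response element was present in 9 of 17 antiviral members (52.9%), 2 of 6 signalling members (33.3%) and 4 of 5 GTPase members (80%), so these letters did not divide the antiviral members from the GTPases. The gamma-activated site was in 5 of the 17 antiviral members and in 1 of the 5 GTPases, Igtp. A single window, that of Bst2, held a gamma-activated site that overlapped a response element. A match is a description of the letters and not a measured site.

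Stretches of 80 bases from before the start are printed for 5 members that were higher in group M than in Ctrl, because they show the element in a gene of each role; capitals mark the response element on either strand and, in Igtp, also the gamma-activated site that lies before it. The Ifit1 stretch is chr19:34640769-34640848 on the plus strand, the Rsad2 stretch chr12:26456528-26456607 on the minus strand, the Isg15 stretch chr4:156200840-156200919 on the minus strand, the Gbp3 stretch chr3:142559964-142560043 on the plus strand and the Igtp stretch chr11:58199476-58199555 on the plus strand, all of GRCm38.p6.
Ifit1: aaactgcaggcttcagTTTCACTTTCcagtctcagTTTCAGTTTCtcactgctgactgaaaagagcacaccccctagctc
Rsad2: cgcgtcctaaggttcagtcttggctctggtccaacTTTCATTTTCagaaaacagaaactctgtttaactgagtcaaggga
Isg15: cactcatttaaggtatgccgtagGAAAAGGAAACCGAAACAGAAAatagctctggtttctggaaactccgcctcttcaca
Gbp3: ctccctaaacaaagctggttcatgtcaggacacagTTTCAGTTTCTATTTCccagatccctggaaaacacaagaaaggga
Igtp: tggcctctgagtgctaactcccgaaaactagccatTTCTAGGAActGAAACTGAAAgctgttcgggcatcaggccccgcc
Ifit1 holds 2 separate copies, Gbp3 2 overlapping copies and Isg15 a run of 3 overlapping copies. The windows of Cmpk2, Oasl2, Oasl1, Xaf1 and Ifi47, which were also higher in both T and M, held neither motif.

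Many members were higher after co-culture in the lower chamber. In T against Ctrl, 20 of the 35 tested members were higher and 2 were lower at an adjusted p of 0.05 in limma's test, where 17.6% of all tested genes were higher and 27% were lower. Without T3, 13 members rather than 20 were called higher, and without any other single array 14 to 21. The lower calls went from 2 to 0 without T2, and to 1 without Ctrl2, T1 or T3. The median log2 difference was 0.61 for the members and -0.14 for all genes. Levels are log2 of the processed signal minus the array's 75th percentile, a difference of 1 is a doubling, and an error after ± is the SE of limma's fit for a difference. With quantile normalization the median of all genes was 0.00 and with scaling to array medians 0.29, and the share of calls that were higher went from 39.5% to 52.6% and 66.2%. The antiviral median moved with it, from 0.78 to 1.0 and 1.21, so it stayed near 1 above that of all genes. In bulk RNA, as these sorted cells gave, fewer cells of a type and less RNA per cell cannot be told apart.

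**Figure D1:**
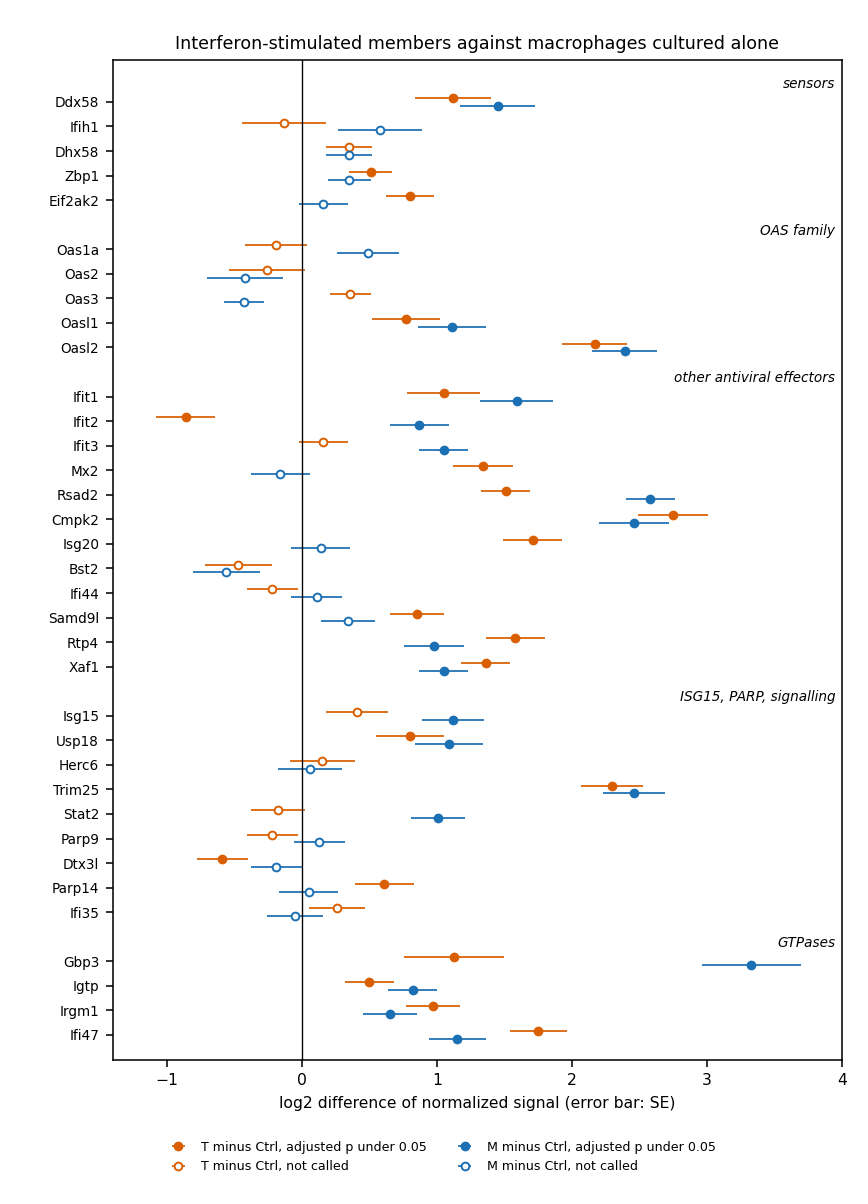
Log2 difference of each of the 35 tested members from macrophages cultured alone, for T (orange) and M (blue), grouped by role; bars are the SE of limma's fit over 9 arrays, and filled points passed an adjusted p of 0.05. Cmpk2, Oasl2, Rsad2 and Trim25 lie far to the right in both groups. The Trim25 points rest on a probe that ends in a dinucleotide repeat, and the gene's second probe passed in neither group. Ifit2 lies on opposite sides of 0, and Gbp3 lies farthest right, at 3.33 in M.

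Among the sensors of viral nucleic acid, 3 of 5 were higher in T. Ddx58, which encodes RIG-I, was higher by 1.12 ± 0.28 (adjusted p 0.00979), but its second, dimmer probe differed by 0.10. Eif2ak2, the kinase PKR that stops translation on sensing double-stranded RNA, stood at -5.07, -4.56 and -4.81 on the Ctrl arrays, -4.14, -4.07 and -3.85 on the T arrays and -4.64, -4.64 and -4.67 on the M arrays. All T arrays lay above all Ctrl arrays, by 0.80 ± 0.18 (adjusted p 0.00578). Zbp1, a sensor of Z-form nucleic acid, was higher by 0.51 ± 0.16 (adjusted p 0.0276), but its second probe went the other way by -0.76 (adjusted p 0.0148 over all probes). Its call ended without any one of Ctrl1, Ctrl2, T1, T2 and T3, with adjusted p from 0.0617 to 0.0942, and with the replicate number as a block (0.0562). Ifih1, which encodes MDA5, differed by -0.13 ± 0.31 and Dhx58, which encodes the regulator LGP2, by 0.35 ± 0.17, and neither passed.

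The 2-5 oligoadenylate synthetases make the signal that activates RNase L, and the members of this family did not move together. Oasl2, an OAS-like protein, was at -6.40, -6.40 and -5.90 in Ctrl, -4.12, -4.11 and -3.94 in T and -3.95, -4.22 and -3.37 in M. Both co-culture groups lay wholly above Ctrl, T by 2.17 ± 0.24 (adjusted p 0.000127), which is 4.51-fold. With normexp background correction the T difference was 1.04 (adjusted p 0.00189). Oasl1 was higher in T by 0.77 ± 0.25 (adjusted p 0.0326), a call that ended without any one of Ctrl1, Ctrl2, T1, T2 and T3 (adjusted p 0.0682 to 0.117). The classical synthetases did not pass in T: Oas1a differed by -0.19 ± 0.23, Oas2 by -0.26 ± 0.28 and Oas3 by 0.36 ± 0.15.

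Of the 12 other antiviral effectors tested, 8 were higher in T and 1 was lower. Cmpk2, a mitochondrial nucleotide kinase, had the largest T difference in the processed signal of the members' brightest probes. It was at -6.05, -6.43 and -5.30 in Ctrl, -3.11, -3.30 and -3.11 in T and -3.48, -3.45 and -3.47 in M, and neither co-culture group overlapped Ctrl. Its T difference was 2.75 ± 0.26 (adjusted p 4.28e-05), or 6.73-fold, and 1.24 by a dimmer second probe. That second probe exceeded background well on 2 Ctrl, 3 T and 2 M arrays. With normexp background correction the T difference of the brightest Cmpk2 probe was 1.58 (adjusted p 6.38e-05). This was below those of Trim25, Ifi47 and Isg20 at 2.30, 1.68 and 1.67. Rsad2, which encodes the antiviral enzyme viperin, was at -4.03, -3.72 and -3.98 in Ctrl, -2.39, -2.31 and -2.49 in T and -1.23, -1.62 and -1.14 in M. Its 3 groups formed 3 separate steps, and T was above Ctrl by 1.51 ± 0.18 (adjusted p 0.000227). Isg20, an RNA exonuclease, was at 3.02, 2.70 and 2.87 in Ctrl, 4.94, 4.26 and 4.51 in T and 2.84, 3.35 and 2.82 in M. It was high on T arrays alone, by 1.71 ± 0.22 over Ctrl (adjusted p 0.000373) and by 2.60 by a second probe. Mx2, a dynamin-like antiviral GTPase, was at -3.44, -3.22 and -3.19 in Ctrl, -2.30, -1.68 and -1.86 in T and -3.46, -3.16 and -3.73 in M. It likewise stood out on the T arrays, by 1.34 ± 0.22 (adjusted p 0.00121), although it did not pass with the authors' deposited value table (0.56, adjusted p 0.379). Rtp4 by 1.58, Xaf1 by 1.36, Ifit1 by 1.05 and Samd9l by 0.85 were also higher, and the Ifit1 call ended without T3 (adjusted p 0.0527). Dimmer second probes gave larger T differences for Samd9l, 2.48, and Xaf1, 2.14. The second Samd9l probe passed the background filter through T only, exceeding background well on 1 Ctrl array, 3 T arrays and 0 M arrays.

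Ifit2 was the only antiviral member called lower in T. IFIT proteins bind viral RNA and stop its translation. Ifit2 was at -3.82, -3.55 and -3.34 in Ctrl, -4.25, -4.66 and -4.40 in T and -2.38, -3.10 and -2.63 in M. The T arrays lay below and the M arrays above every Ctrl array. T was lower than Ctrl by a difference of -0.86 ± 0.22 (adjusted p 0.0117), a call that ended under quantile, median and loess scaling and without T2 (adjusted p 0.0536). Bst2, the tether that holds budding virus on the cell, had the smallest difference among the members not called lower. It was at 5.01, 4.80 and 5.11 in Ctrl, 4.54, 4.44 and 4.52 in T and 4.46, 4.92 and 3.85 in M, and did not pass in T (-0.47 ± 0.25, adjusted p 0.146). Mx1, the other dynamin-like member, was too close to background on all 9 arrays to be tested. Its measured means were -8.73 in Ctrl, -8.63 in T and -7.70 in M, below the lowest signal that counted as well above background on any array (-6.67 to -5.40).

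Of the 9 ISG15, PARP and signalling members, 3 were higher in T and 1 was lower. Trim25, the ubiquitin ligase that activates RIG-I, was at 2.82 and 3.12 on 2 Ctrl arrays (the Ctrl3 spot was marked as an outlier and left out), 5.51, 5.09 and 5.23 in T and 5.18, 5.72 and 5.39 in M. Its T difference was 2.30 ± 0.23 (adjusted p 0.000125), with both co-culture groups well clear of Ctrl. These values rest on a probe whose last 30 bases are a plain dinucleotide repeat, shown here because it bears on whether the value belongs to the gene.
Trim25 probe, last 30 bases: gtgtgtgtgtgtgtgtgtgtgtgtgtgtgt
No other member's probe held such a repeat longer than 8 bases. The second Trim25 probe, without the repeat, differed by 0.16 in T (adjusted p 0.48) and 0.09 in M (adjusted p 0.736), so that neither call for Trim25 held by that probe. Usp18, the protease that removes ISG15, was higher by 0.80 ± 0.25 (adjusted p 0.0267) and Parp14, an ADP-ribosyltransferase, by 0.61 ± 0.22 (adjusted p 0.0469). The Usp18 call ended without any one of Ctrl1, Ctrl2, T1, T2 and T3 (adjusted p 0.0628 to 0.0958), and that of Parp14 without any one of those or of M1 and M3 (0.0581 to 0.164). Dtx3l, the ubiquitin ligase that pairs with PARP9, was at 0.40, 0.91 and 0.65 in Ctrl, -0.07, 0.12 and 0.15 in T and 0.47, 0.26 and 0.67 in M. All T arrays lay below all Ctrl arrays, with a difference of -0.59 ± 0.19 (adjusted p 0.029), and the call ended without Ctrl2, T1, T2 or T3 (0.0665 to 0.107) and under scaling to array medians. Its other 2 probes differed by -0.52 and -0.40 and did not pass. Isg15 itself, the ubiquitin-like protein, did not pass in T by its brighter probe (0.41 ± 0.23, adjusted p 0.166), while its dimmer probe was higher by 1.60 (adjusted p 0.000776 over all probes). Stat2 differed by -0.18 ± 0.20, Parp9 by -0.22 ± 0.19, Herc6 by 0.15 ± 0.24 and Ifi35 by 0.26 ± 0.21, and none of the 4 passed. A dimmer second Parp9 probe was lower in T, at -0.84 (adjusted p 0.026 over all probes), and the mean of both probes passed at -0.53 (adjusted p 0.025).

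All 4 GTPase members that could be tested were higher in T, with differences from 0.50 to 1.75, where the antiviral members ran from -0.86 to 2.75 with 13 of 22 higher. Ifi47, also called IRG-47, was at -0.74, -0.43 and 0.09 in Ctrl, 1.26, 1.46 and 1.44 in T and 0.86, 0.77 and 0.74 in M. The 3 groups did not overlap, and T was above Ctrl by 1.75 ± 0.21 (adjusted p 0.000238). Irgm1, a regulatory GTPase that guards the cell's own membranes, was at -1.09, -0.62 and -1.06 in Ctrl, -0.18, 0.20 and 0.13 in T and -0.05, -0.49 and -0.28 in M. Its T arrays lay above its Ctrl arrays by 0.97 ± 0.20 (adjusted p 0.00411). Igtp, also called Irgm3, was at -1.11, -0.89 and -0.66 in Ctrl, -0.49, -0.28 and -0.38 in T and -0.04, -0.25 and 0.09 in M. Its groups were also separate, but the T difference was small, 0.50 ± 0.18 (adjusted p 0.0429), and the call ended without any one of Ctrl1, Ctrl2, T1, T2, T3, M1 and M3 (0.0533 to 0.144). With the replicate number as a block Igtp did not pass (0.0633), which leaves 3 of 4.

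Both guanylate-binding members lay near background in Ctrl. Gbp3 was at -6.69, -6.50 and -5.50 in Ctrl, -5.76, -4.62 and -4.91 in T and -2.50, -3.01 and -3.21 in M. The probe exceeded background well in 2 of the 3 Ctrl samples and in all T and M samples. T and Ctrl overlapped, at T1 and Ctrl3, and the T difference of 1.13 ± 0.37 (adjusted p 0.0316) lost its call without Ctrl1, Ctrl2, T2 or T3 (0.0962 to 0.119) and with normexp background correction (0.49, adjusted p 0.0696). Gbp2 was at -8.74, -6.09 and -8.11 in Ctrl, -8.63, -8.07 and -8.27 in T and -7.24, -7.56 and -7.03 in M. It was well above background on 1 Ctrl array alone and was not tested, so the list's count rests on 1 guanylate-binding protein and 3 immunity-related GTPases.

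**Figure D2:**
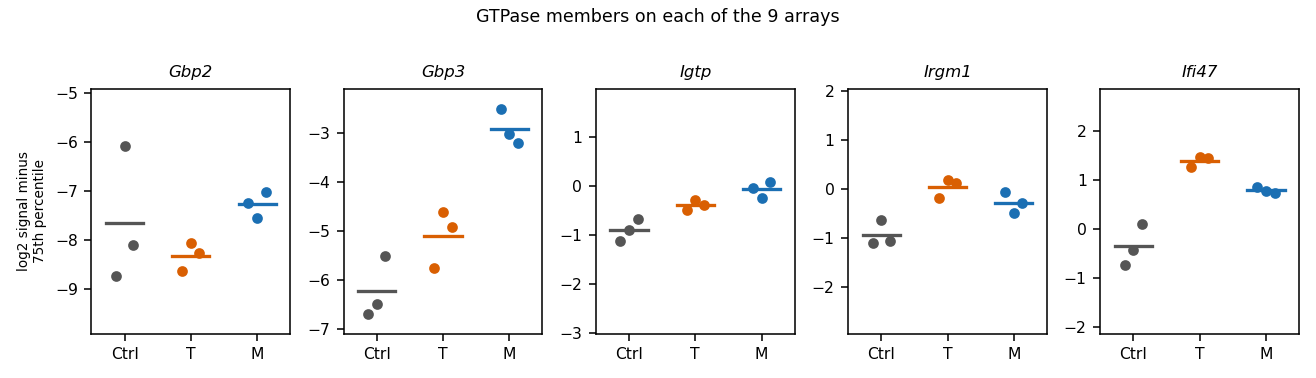
Log2 signal minus the array's 75th percentile for the 5 GTPase members on each array, with 1 panel per gene, points for arrays and a line at the group mean; every panel spans the same range of log2 units. Gbp3 is high on all 3 M arrays, from -3.21 to -2.50, Ifi47 is highest in T, and Gbp2 stays near background apart from 1 Ctrl array.

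The migratory macrophages also had higher levels of many members. In M against Ctrl, compared within a slide, 18 of 35 tested members were higher and 0 were lower in limma's test, where 12.4% of all tested genes were higher and 11.2% lower. At an unadjusted p of 0.05 the lower members were 2, Oas3 and Bst2. The median difference was 0.65 for the members and -0.09 for all genes. The share of all calls that were higher was 52.5%, and 66.3% with quantile normalization and 74.7% with scaling to array medians. Without M1 and M3, the arrays with the most variable repeat spots, 7 members were called higher and 0 lower. Fitted to the 6 arrays of this slide alone, 16 were higher and 0 lower. Without Ctrl3 or M2, 1 member was lower, Oas3 or Bst2 respectively.

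By role, 1 of 5 sensors, 2 of 5 synthetases, 7 of 12 other antiviral effectors, 4 of 9 signalling members and 4 of 4 GTPases were higher in M. Ddx58 was the sensor, at 1.45 ± 0.28 over Ctrl (adjusted p 0.00597), but its second probe differed by 0.35 and did not pass (adjusted p 0.209 over all probes). Of the synthetase family, Oasl2 was higher by 2.39 ± 0.24 (adjusted p 7.55e-05; 1.31 with normexp) and Oasl1 by 1.11 ± 0.25 (adjusted p 0.0144). The Oasl1 call ended without Ctrl1 or Ctrl2 (0.0554 and 0.0627). The classical synthetases again did not pass. Oas2 was at -0.94, -1.31 and -1.08 in Ctrl, -1.57, -1.23 and -1.32 in T and -1.20, -1.14 and -2.25 in M, with M3 well under the rest (-0.42 ± 0.28, adjusted p 0.285). Oas3 was at -0.78, -0.90 and -0.87 in Ctrl, -0.53, -0.52 and -0.43 in T and -1.36, -1.24 and -1.25 in M. Its 3 groups were separate, with M at -0.43 ± 0.15 from Ctrl (adjusted p 0.0541), and the call was made without Ctrl3 (0.0315).

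Among the other effectors, Rsad2 was higher in M by 2.58 ± 0.18 (adjusted p 6.03e-06), 5.96-fold, and Cmpk2 by 2.46 ± 0.26 (adjusted p 9.88e-05). Cmpk2 was higher by 1.55 with normexp and by 0.91 by its second probe. All 3 IFIT members were higher: Ifit1 by 1.59 ± 0.27 (adjusted p 0.00309; 0.91 with normexp), Ifit3 by 1.05 ± 0.18 (adjusted p 0.00278) and Ifit2 by 0.87 ± 0.22 (adjusted p 0.0234). The Ifit2 call ended without any one of Ctrl1, Ctrl2, M1 and M3 (0.0699 to 0.0869). Xaf1, a pro-apoptotic protein, was higher by 1.05 and Rtp4 by 0.98, and the Rtp4 call ended without Ctrl2 (0.0546). Mx2 at -0.16 ± 0.22, Isg20 at 0.14 ± 0.22 and Bst2 at -0.56 ± 0.25 did not pass.

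In the signalling class, Stat2, a subunit of ISGF3, was at 0.13, 0.25 and 0.78 in Ctrl, -0.02, 0.32 and 0.32 in T and 1.46, 1.37 and 1.35 in M. The M arrays alone were high, by 1.01 ± 0.20 over Ctrl (adjusted p 0.00734). Isg15 was higher by 1.12 ± 0.23 (adjusted p 0.0083) and by 1.72 by its dimmer probe. Usp18 was higher by 1.09 ± 0.25 (adjusted p 0.0145), and lost its call without Ctrl1, Ctrl2 or M3 (0.0529 to 0.0616). Trim25, by the repeat probe only, was higher by 2.46 ± 0.23 (adjusted p 9.22e-05).

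Gbp3 was higher in M by 3.33 ± 0.37 (adjusted p 0.000169), and its M arrays stood more than 2 log2 units above every Ctrl array, of which 1 did not exceed background well. With normexp the difference was 1.98 (adjusted p 2.42e-05), below that of Rsad2 at 2.28. Ifi47 was higher by 1.15 ± 0.21 (adjusted p 0.00476) and Igtp by 0.82 ± 0.18 (adjusted p 0.0108), the latter not without M3 (0.0518). Irgm1 was higher by 0.65 ± 0.20 (adjusted p 0.0429), but its call ended without any one of Ctrl1, Ctrl3, M1, M3, T2 and T3 (0.0565 to 0.141), the T arrays bearing on it through the shared estimate of the spread.

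**Figure D3:**
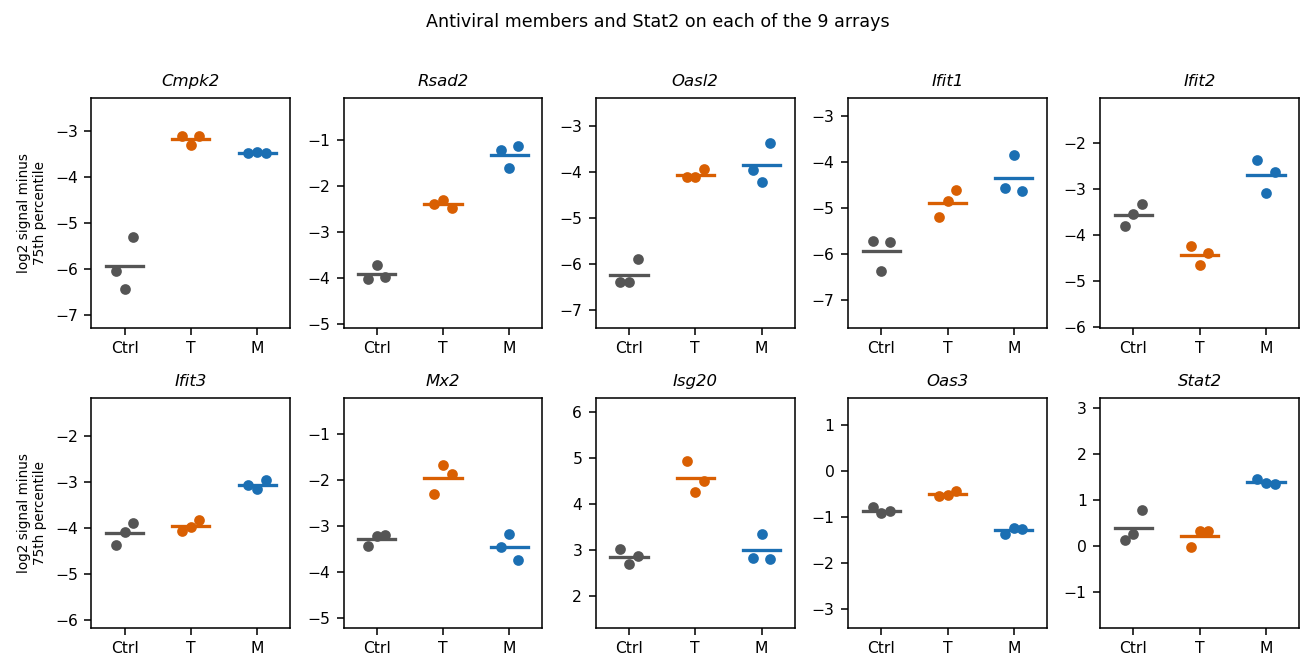
Log2 signal minus the array's 75th percentile for 9 antiviral members and Stat2 on each array, drawn as in the plot of the GTPase members. Cmpk2 and Oasl2 are high in both T and M, Ifit2, Ifit3 and Stat2 are highest in M, and Mx2 and Isg20 are high in T alone, with Isg20 from 4.26 to 4.94 there.

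The migratory and the lower-chamber macrophages were also compared directly. In M against T, 6 of 35 members were higher and 4 lower in limma's test, where 14.8% of all tested genes were higher and 10.8% lower, and the member shares of 17.1% and 11.4% were near those of all genes. The median differences were 0.16 for the members and 0.11 for all genes. Higher in M were Gbp3 by 2.19 ± 0.37 (adjusted p 0.00207), Ifit2 by 1.73 ± 0.22 (adjusted p 0.000388), Stat2 by 1.19 ± 0.20 (adjusted p 0.00213), Rsad2 by 1.06 ± 0.18 (adjusted p 0.00222), Ifit3 by 0.89 ± 0.18 (adjusted p 0.00506) and Isg15 by 0.70 ± 0.23 (adjusted p 0.048). The M arrays lay wholly above the T arrays for all 6, as they did for 28.6% of all tested genes. The Isg15 call ended in 14 of 22 other settings, among them without any one of Ctrl2, M1, M2, T1, T2 and T3 (0.0684 to 0.154), and its dimmer probe differed by 0.12. With the authors' deposited value table Ifit2 and Stat2 alone of these 6 passed, and Gbp3 (1.08), Rsad2 (0.65), Ifit3 and Isg15 did not. The Ifit3 call also ended under median and loess scaling.

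Lower in M than in T were Isg20, with a difference of -1.57 ± 0.22 (adjusted p 0.000726), Mx2 at -1.50 ± 0.22 (adjusted p 0.000749), Oas3 at -0.79 ± 0.15 (adjusted p 0.00321) and Eif2ak2 at -0.64 ± 0.18 (adjusted p 0.0251). For all 4 the M arrays lay wholly below the T arrays, as they did for 19.7% of all tested genes. The Eif2ak2 call ended without any one of M1, M2, M3, T2 and T3 (0.0579 to 0.116). Mx2 (-0.72), Oas3 and Eif2ak2 did not pass with the authors' deposited value table. Dimmer second probes were lower in M for Samd9l (-1.81, adjusted p 0.00283 over all probes) and Xaf1 (-0.84, adjusted p 0.0421), whose brighter probes did not pass. The second Samd9l probe exceeded background well on 0 M arrays, so its level in M was not measured above background. The mean of the Parp9 probes was higher in M (0.54, adjusted p 0.0373). Cmpk2 at -0.29 ± 0.26, Oasl2 at 0.21 ± 0.24 and Ddx58 at 0.33 ± 0.28 did not pass, which does not show that they were equal. Of the GTPases other than Gbp3, Igtp differed by 0.32 ± 0.18, Irgm1 by -0.32 ± 0.20 and Ifi47 by -0.60 ± 0.21, none of which passed. The call for Ifi47 was made without Ctrl1 or Ctrl3 (0.0371 and 0.0135). Without Ctrl3, 8 members rather than 4 were called lower in M than in T.

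**Figure D4:**
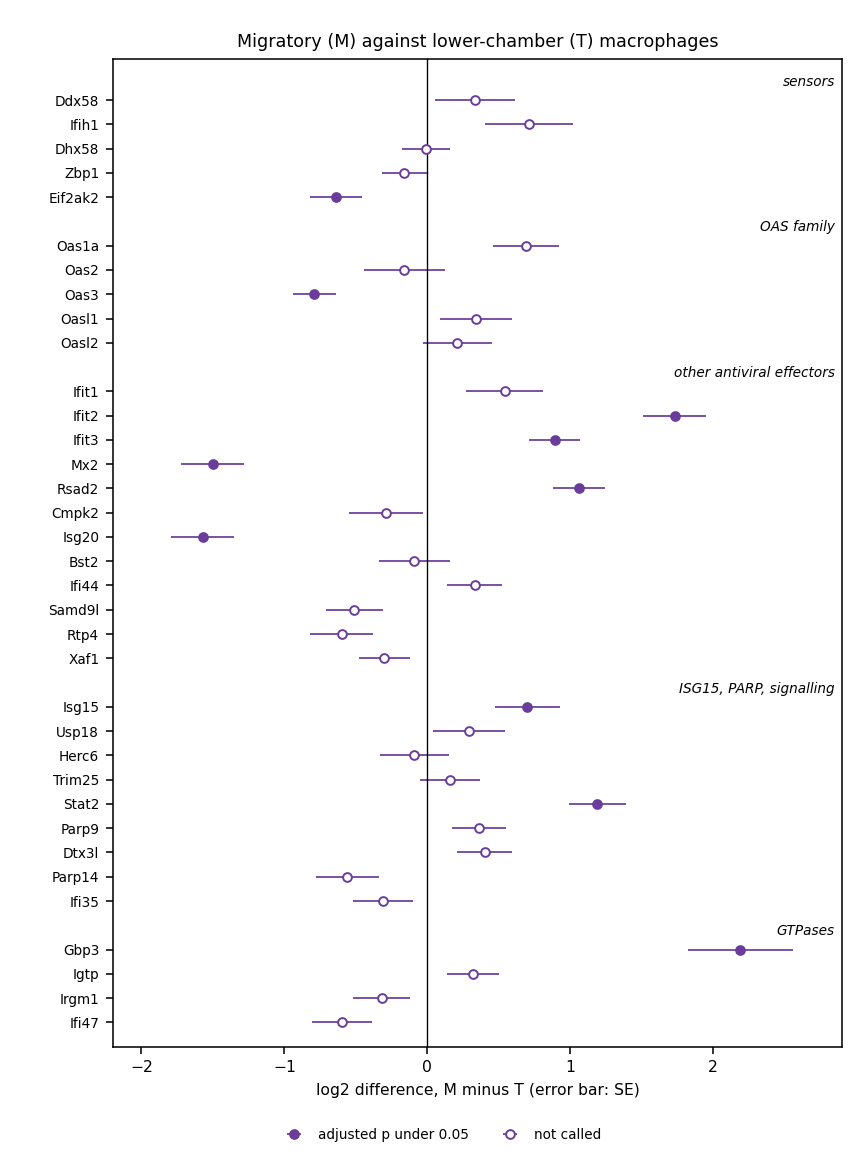
Log2 difference between migratory (M) and lower-chamber (T) macrophages for the 35 tested members by role; bars are the SE of limma's fit, and filled points passed an adjusted p of 0.05. Gbp3, Ifit2 and Stat2 lie farthest to the right and Isg20 and Mx2 farthest to the left, at -1.57 and -1.50.

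Set side by side, the GTPase members had 4 of 4 higher in both comparisons with Ctrl and medians of 1.05 in T and 0.98 in M, and the antiviral members 13 of 22 in T and 10 of 22 in M with medians of 0.78 and 0.54. The 4 GTPase calls became 2 in T without Ctrl1, Ctrl2, T2 or T3, where Gbp3 and Igtp did not pass, and 2 in M without M3, where Igtp and Irgm1 did not. Gbp3 passed the background filter through T and M only, the groups where it was high. Where every probe had to exceed background well on all 9 arrays, Gbp3 was not tested. Ifi47, Irgm1 and Igtp were then still higher in T and in M, with a GTPase median of 0.97 in T. The lists were not tested against each other. Of 10 tested interferon-inducible GTPases outside the member list, 3 (30%) were higher and 4 (40%) lower in T, where 17.6% and 27% of all genes were. In M 4 (40%) were higher and 2 (20%) lower, where 12.4% and 11.2% of all genes were. Irgm2 (1.53 ± 0.31, adjusted p 0.00354) and Gbp5 (1.21 ± 0.18, adjusted p 0.000682) were the highest in T, and Gbp6 (-1.22 ± 0.39, adjusted p 0.029) and Gbp9 (-0.94 ± 0.18, adjusted p 0.00307) the lowest. In M the highest were Irgm2 at 1.07 and Gbp7 at 0.98, and the lowest Tgtp1 at -0.84 and Gbp10 at -0.60. Gbp6, Gbp10 and Tgtp1 were dim, at -4.35, -3.88 and -5.52 in Ctrl, while Gbp9 was at -1.44. Of all tested genes with a mean level under -3, 51.7% were lower in T and 18.6% in M. Tgtp1 exceeded background well on 0 M arrays. Under quantile, median or loess scaling 1 of these 10 was lower in T and 0 in M.

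**Figure D5:**
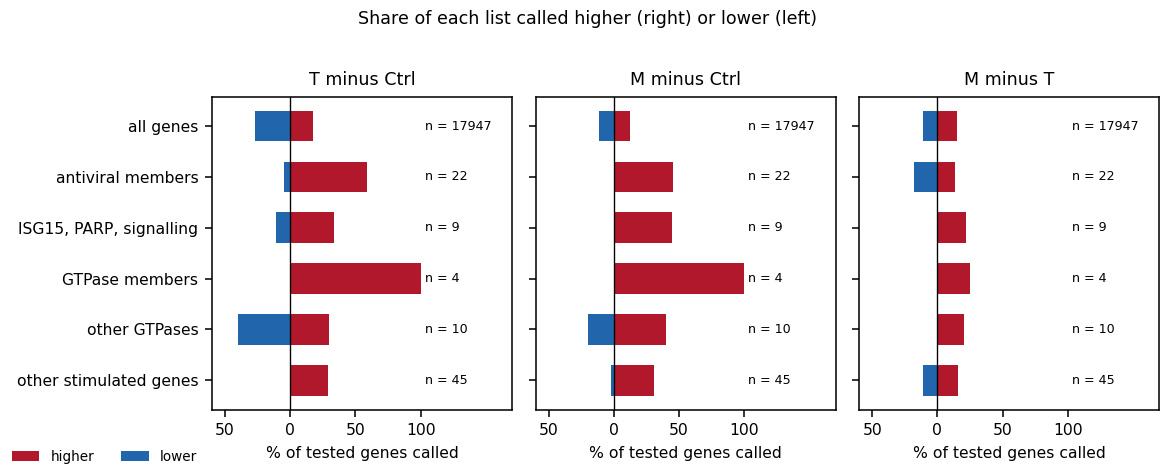
Percentage of the tested genes of each list called higher (red, to the right) or lower (blue, to the left) at an adjusted p of 0.05 in each comparison, with the number tested beside each bar. The antiviral and GTPase members stand above all genes in T and M against Ctrl, at 59.1% and 100% higher in T against 17.6%, while in M against T the antiviral shares of 13.6% higher and 18.2% lower are near the 14.8% and 10.8% of all genes.

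No interferon gene passed as higher than in Ctrl. Of 9 tested ligand genes, 0 were higher and 6 lower in T, and 0 higher and 3 lower in M; no ligand was higher at an unadjusted p of 0.05 in either, and none under the 3 other scalings. The lower calls were 4, 5 and 3 in T and 0, 1 and 0 in M with quantile, median and loess scaling. In M against T, 1 of the 9 was higher and 0 lower in limma's test, where 14.8% of all genes were higher. It was Ifna11, at 0.83 (adjusted p 0.0199). Ifna7 at -1.69 and Ifna5 at -1.65 had the lowest T differences, and Ifna1 at -0.34 and Ifnab at -0.35, which did not pass, the highest. The Ifna genes are near-identical copies, so their probes may share signal. These are mostly dim probes. Of the 5273 tested genes with a mean level under -3, 51.7% were lower in T and 18.6% in M, with medians of -0.84 and -0.45. Brighter in Ctrl, and also called lower in T, were Ifnl3 at 0.55, Ifna12 at -0.93 and Ifna5 at -1.93. Their T differences were -1.02, -0.82 and -1.65. Of genes with a mean level from -3 to 0, 26.1% were lower in T, and of those at 0 or more, 11.7%. Ifna7, called lower in M, exceeded background well on 0 M arrays. Ifng, encoding interferon gamma, exceeded background well on 0 arrays, and Ifnb1, encoding interferon beta, on 2 Ctrl arrays, 1 T array and 0 M arrays, so neither was tested.

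Of 9 tested genes for receptors, kinases and ISGF3, 3 (33.3%) were higher and 0 lower in each comparison with Ctrl, where 17.6% of all genes were higher in T and 12.4% in M, and 0 were lower at an unadjusted p of 0.05. With scaling to array medians 7 were higher in T. Irf9, the DNA-binding part of ISGF3, was higher by 0.99 ± 0.19 in T (adjusted p 0.00335) and by 0.79 in M (adjusted p 0.0195). Jak2, a kinase of the interferon gamma receptor, was higher by 0.56 ± 0.19 in T (adjusted p 0.0339) and by 1.37 in M (adjusted p 0.000719), and the gamma receptor gene Ifngr2 by 0.79 in M (adjusted p 0.0323). Of 9 tested inducers upstream of interferon, 3 (33.3%) were higher in T and 2 (22.2%) in M, with 0 lower in either; at an unadjusted p of 0.05, 1 was lower in T and 0 in M. Ikbke, a kinase that activates IRF3 and IRF7, was higher in T by 1.26 ± 0.21 (adjusted p 0.00136) and Irf7 by 0.85 ± 0.18 (adjusted p 0.00478).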

How the data were processed

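Per the submitters' processing notes, the authors read spot values from the scans using Agilent Feature Extraction 10.7.3.1. The deposited scanner files give a background-subtracted, detrended processed signal intensity per spot, with probe positions on mm9, per the file headers. The deposited value table mixes linear intensity and log2 columns; its M1 and M2 columns matched each other's scanner files and its T2 column matched none, and it served only as an alternative.

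Control and outlier spots were left out, spots of a probe averaged, and log2 of the signal minus the array's 75th percentile taken. Tests covered probes that exceeded background well on every array of 1 group or more, and the brightest probe stood for a gene; its other probes are reported where a call differed. Group means of all 9 arrays were fitted with limma 3.58.1 (lmFit, eBayes; R 4.3.3), with Benjamini-Hochberg adjustment over 17947 genes. Replicate numbers come from the titles. Same-numbered Ctrl and T arrays deviated together from their group means (correlations of 0.118 to 0.549 over the 3 pairs). Same-numbered M arrays deviated with neither (-0.275 to 0.025). Unlike-numbered arrays of different groups ran from -0.454 (Ctrl3 with T1) to 0.353 (Ctrl1 with M2), with T1 and M2 at 0.325. The exchange of M1 and M2 in the deposited value table bears on the M pairs. Whether the numbers pair any arrays is therefore not settled, and a block on them is reported where it changed a T call. The procedure was tested on simulated data. Members and lists were chosen with earlier results of these data known, so lists are described by counts and medians and not tested. Values on every array are given for the GTPase members, the 3 largest and 3 smallest differences per comparison and members called lower. In other lists at most 2 of each extreme are named, apart from the markers and the brighter ligands. Promoter windows are RefSeq's, build GRCm38.p6. In all, 22 other settings were tried.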

Additional observations from a re-analysis of the deposited data

How the results depend on the processing

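The 3 arrays per group and the background limit these results: 2 of 37 members were too dim to test, and 1 probe stood for most genes. No member changed sign while called, apart from Zbp1 in T against Ctrl, which went to -0.12 (adjusted p 0.536) with the mean of its probes. The cause of the other changes below was not tested. In T against Ctrl the antiviral and GTPase medians were 0.55 and 0.70 with normexp background, 1.0 and 1.38 with quantile, 1.21 and 1.48 with median and 0.99 and 1.39 with loess scaling; the GTPase median was 1.45 from the deposited table and 1.32 with array weights. Members lower in T were 1, 0 and 1 with quantile, median and loess scaling. In M against Ctrl the medians were 0.84 and 1.28 with median scaling, and 1 member was lower with normexp, with loess, with probes above background on all 9 arrays and with the mean of probes, and 3 with array weights; without M1 and M3, 7 were higher. In M against T, 7 were lower with loess, 8 with only the groups compared, 2 higher and 1 lower from the deposited table, 13 and 14 with array weights, and 3 and 2 without M1 and M3. There the antiviral median was 0.04 with normexp, -0.17 with median scaling, 0.09 with the mean of probes and 0.07 without M1 and M3, and the GTPase median 0.32 with no filter, -0.32 with the stricter filter and -0.20 without M1 and M3. Leaving out each array in turn gave, in T against Ctrl, 13 to 21 higher and 0 to 2 lower, with medians of 0.64 to 0.91 and 0.90 to 1.27; in M against Ctrl, 14 to 20 higher and 0 to 1 lower, with medians of 0.36 to 0.79 and 0.83 to 1.15; in M against T, 5 to 7 higher and 3 to 8 lower, with medians of -0.13 to 0.09 and -0.09 to 0.10. With the replicate number as a block over all 9 arrays, 18 members were higher and 2 lower in T against Ctrl. There the block changed no member's call other than those of Zbp1 and Igtp. It gave 17 and 0 in M, and 5 and 4 in M against T. The slide could not be fitted as a block, since all T arrays and no others lay on slide 2.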

Other observations

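Of 45 tested interferon-stimulated genes outside the member list, 13 (28.9%) were higher and 0 lower in T against Ctrl (3 lower at an unadjusted p of 0.05), and 14 (31.1%) were higher and 1 lower in M, by limma's adjusted p of 0.05, where 17.6% of all genes were higher in T and 12.4% in M. With scaling to array medians 20 were higher in T and 18 in M. With quantile normalization 3 were lower in T. Ifi202b, of the family of DNA-binding p200 proteins, had the largest difference in both, 2.42 in T (adjusted p 2.61e-05) and 3.56 in M (adjusted p 1.43e-06), followed by the antibody receptor gene Trim21 at 2.04 in T and 1.54 in M. Ifi44l was the only one lower in M, at -2.36 (adjusted p 9.05e-05). Its probe exceeded background well on all Ctrl and T arrays and on 0 M arrays, so its level in M was not measured above background. The member Ifi44 differed by 0.11 in M. The chemokine gene Cxcl9 had the lowest T difference, -1.07, and did not pass. Of 12 class I antigen processing genes, 0 were higher and 1, the immunoproteasome gene Psmb10, was lower in T (-0.53, adjusted p 0.0466), and 2 were higher in M, the class I transactivator Nlrc5 by 1.43 (adjusted p 0.00378) and the immunoproteasome gene Psmb9 by 0.68 (adjusted p 0.0154); scaled to array medians, 3 were higher and 0 lower in T.

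Members that lie beside each other on the mm9 genome did not always move together. Ifit2, Ifit3 and Ifit1 lie within 73.6 kb at chr19:34650244-34723855, and their T differences were -0.86, 0.16 and 1.05, while in M all 3 were higher, by 0.87, 1.05 and 1.59. Rsad2 and Cmpk2 lie within 36.3 kb at chr12:27127859-27164178, and both were higher in T and M, while in M against T Rsad2 passed at 1.06 and Cmpk2, at -0.29, did not. Parp14, Dtx3l and Parp9 lie within 140 kb on chromosome 16, and their T differences were 0.61, -0.59 and -0.22. Positions are those of the probes, and whether neighbours differ from each other was not tested.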
